A study of Homo sapiens with 6 samples.

Results

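Open chromatin was examined at 6 genes of telomere maintenance, ATRX, DAXX, TERT, POT1, TERF1 and TERF2, in U2OS, a long-established cell line from a human osteosarcoma that keeps its telomeres without telomerase. A peak belonged to a gene when it lay within 10 kb of the gene's limits in the hg19 genome build. The 6 windows held 47 of 248031 merged peak regions. TERT had 21 of them, TERF2 14, DAXX 6, ATRX 3, POT1 2 and TERF1 1. The libraries came from 3 samples of U2OS cells in which CRAMP1, a protein known to control genes of the linker histone H1, was knocked out (CRAMP1-KO) and 3 samples of wild-type U2OS cells (WT). Accessibility was read by ATAC-seq, in which a transposase inserts sequencing adapters into open DNA. No time course or added agent separates the groups. The labels name neither the clone behind the knockout nor separate cultures behind the replicates, so the p-values here speak to library-to-library spread alone, which could be technical.

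Telomerase extends chromosome ends with its catalytic protein, TERT, and an RNA template, TERC. Tumour lines without telomerase can copy telomeric DNA by recombination, which is called alternative lengthening of telomeres (ALT), and loss of ATRX or DAXX function is common in such lines. ATRX, a chromatin remodeller, and DAXX, a histone chaperone, together place the histone variant H3.3 at telomeric repeats. U2OS is known as an ALT line that lacks ATRX protein. TERF1 and TERF2 bind double-stranded telomeric repeats and POT1 binds the single-stranded end, all as subunits of shelterin, the complex that covers telomeres.

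The values are those of peak lists. Each list gives a fold enrichment per peak, which is the authors' own ratio of the reads stacked at the peak's summit to that library's background nearby. The stack, called the summit pileup, was solved from the fold and the peak's p-value. The CRAMP1-KO lists held 133756, 139242 and 157997 peaks, and the WT lists held 198875, 151646 and 132686. WT replicate 1 stood apart, with a median fold of 4.25 against 5.96 to 6.26 in the other 5 libraries, and had the highest genome-wide background. Totals of sequenced reads are unknown. Pileups were therefore scaled so that each library had the same median over the 92505 regions with a peak in all 6 libraries. Accessibility does not show whether the CRAMP1 edit is present, so it was no check of the genotype labels. Of 4 cell type markers, the start of COL1A1, a collagen gene of mesenchymal and bone cells, had a peak within 1 kb in all 6 libraries. The listed start of RUNX2, a bone transcription factor, had none within 1 kb, although 9 regions of its window were shared by all libraries. PTPRC, a leukocyte gene, had no peak within 1 kb of its start either, and 5 of the 11 regions in its window were shared by all libraries. ALB, a hepatocyte gene, had no region in its window.

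A peak covered the start of ATRX, DAXX, POT1 and TERF1 in every library, while none covered the start of TERT in any library. Of the 47 regions, 16 were shared by all 6 libraries, 15 had peaks in libraries of both genotypes but not all, 7, or 14.9%, had a peak in CRAMP1-KO libraries only and 9, or 19.1%, in WT libraries only. Of all regions, 12.6% had a peak in CRAMP1-KO libraries only and 25.9% in WT libraries only. No region had a peak in 3 CRAMP1-KO and 0 WT libraries, a pattern that 0.767% of all regions met. None had a peak in 0 CRAMP1-KO and 3 WT libraries either, which 1.14% of all regions met. Most regions seen in 1 genotype were weak. Their highest −log10 q, the caller's confidence in a peak, had a median of 4.78 for those seen in CRAMP1-KO libraries only and 3.3 for those seen in WT libraries only, against 51.4 for the 16 regions shared by all libraries. The exception was a WT-only region at the listed TERF2 start, with a highest −log10 q of 24.5.

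TERT was the gene with most regions. The CRAMP1-KO libraries had 13, 11 and 16 peaks in its window, and the WT libraries 19, 16 and 12, so the genotypes overlapped. Of these, 8, 6 and 7 peaks in CRAMP1-KO and 8, 5 and 7 in WT had a −log10 q under 5. The region nearest to the start lay inside the gene at chr5:1291186-1294141, with its edge 1021 bp from the start. The nearest upstream region, chr5:1299250-1300184, ended 4088 bp away and had a peak in 2 CRAMP1-KO and 3 WT libraries. The 300 bases around the TERT start are printed here because they are a promoter without a peak, beside those of POT1, whose start had a strong peak in every library. Both run from 250 bases before the start to 50 after it, from RefSeq on GRCh38.p14. That build differs from the hg19 of the peaks. They lie on the minus strand at chr5:1295019-1295318 and chr7:124929776-124930075. Capitals mark GC boxes (GGGCGG, or CCGCCC read on the other strand), the E-box CACGTG and the cAMP response element TGACGTCA, which do not overlap each other.
TERT: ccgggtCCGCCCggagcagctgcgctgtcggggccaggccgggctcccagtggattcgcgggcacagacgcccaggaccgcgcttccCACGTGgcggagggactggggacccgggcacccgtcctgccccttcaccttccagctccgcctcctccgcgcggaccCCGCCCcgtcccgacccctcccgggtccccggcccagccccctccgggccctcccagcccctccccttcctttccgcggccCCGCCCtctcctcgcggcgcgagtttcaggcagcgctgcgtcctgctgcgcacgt
POT1: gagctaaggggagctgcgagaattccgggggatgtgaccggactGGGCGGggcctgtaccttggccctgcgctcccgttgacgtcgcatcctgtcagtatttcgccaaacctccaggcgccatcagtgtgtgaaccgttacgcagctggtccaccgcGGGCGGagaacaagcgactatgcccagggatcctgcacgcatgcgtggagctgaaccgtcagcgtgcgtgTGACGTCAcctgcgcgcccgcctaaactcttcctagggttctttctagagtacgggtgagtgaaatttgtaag

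The TERT promoter was 77.3% G or C and held 36 CpG pairs, whereas the median of 35116 promoters of the same length was 58.7% and 14. The POT1 promoter was 60.3% G or C and held 26 CpG pairs. TERT had 3 GC boxes and POT1 had 2, and 45.0% of the promoters had at least 1. The E-box of TERT was shared by 7.26% of promoters and the cAMP response element of POT1 by 1.85%. The ETS core CCGGAA, on either strand, was found once in POT1 and not in these bases of TERT, and 17.2% of promoters had it. Neither held CCAAT or the telomere repeat unit TTAGGG on either strand, which occurred in 34.6% and 9.05% of promoters. These are matches of letters and not measured binding.

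**Figure D1:**
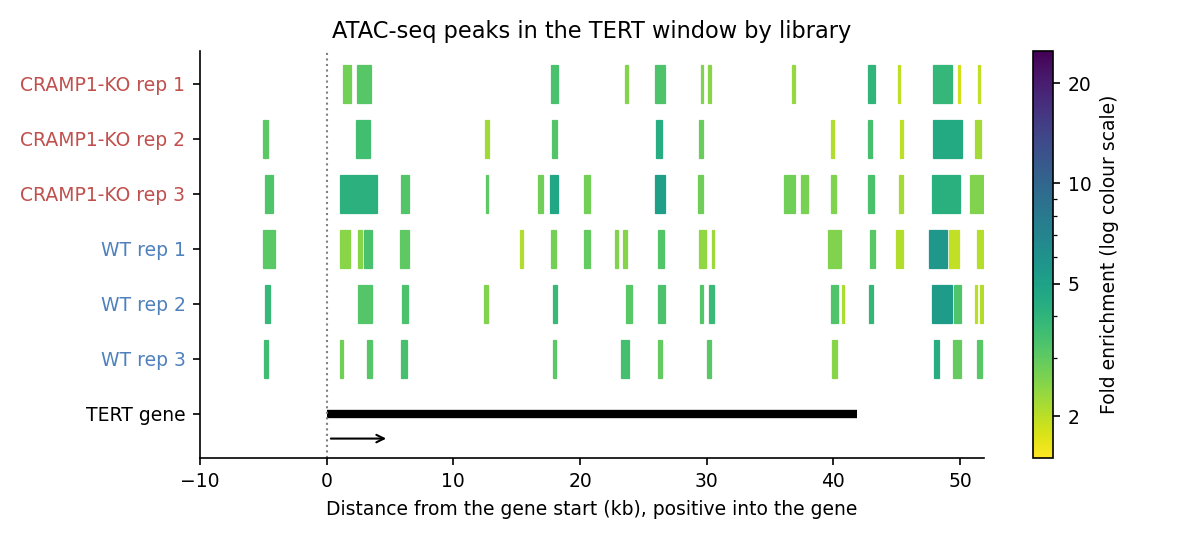
Peaks of each library in the TERT window by distance from the gene start in kb, with CRAMP1-KO rows above WT rows and the colour giving fold enrichment on a log scale. The 13, 11 and 16 peaks of CRAMP1-KO and the 19, 16 and 12 peaks of WT leave the start itself uncovered in every row.

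Of the 21 TERT regions, 16 lay in the gene body, 4 in the flank beyond its end and 1 upstream, and 5 were shared by all 6 libraries. Their scaled pileups stood at the 11.7 to 52.2 percentiles of all shared regions. The highest, chr5:1244983-1247580, lies in the flank beyond the TERT end, where RefSeq places SLC6A18, a transporter gene. Its summit fold was 3.85, 4.51 and 4.18 in CRAMP1-KO and 5.64, 5.31 and 4.32 in WT, which overlapped, and its scaled pileup differed by -0.025 on the log2 scale (limma adjusted p = 0.920).

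A single TERT region passed the pileup test, with more reads at its summit in CRAMP1-KO. It lies in the gene body at chr5:1268420-1269269, 26.3 kb downstream of the start. Whether it is exonic or intronic was not analysed here. Its summit held 25, 35 and 53 reads in CRAMP1-KO and 37, 26 and 16 reads in WT. After scaling these were 30.3, 41.7 and 40.8 in CRAMP1-KO and 28.2, 22.1 and 22.3 in WT. All 3 CRAMP1-KO libraries were above all 3 WT libraries. The means were 37.6 ± 6.35 in CRAMP1-KO and 24.2 ± 3.46 in WT (SD, n = 3 each). The difference was 0.63 on the log2 scale (limma adjusted p = 0.0193, SE 0.15). The peak covered 850, 541 and 788 bp in CRAMP1-KO and 492, 521 and 256 bp in WT, again without overlap, but its width did not pass the threshold (log2 difference 0.69, limma adjusted p = 0.357). Its fold was 3.3, 4.39 and 5.19 in CRAMP1-KO and 3.23, 3.34 and 2.96 in WT. CRAMP1-KO replicate 1 lay within the WT range in fold. The local background of the region moved the same way, by 0.23 on the log2 scale.

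The pileup call was lost in 4 of the 6 fits that left out 1 library. Such fits set 3 libraries against 2, and called 9103 to 11610 of all shared regions instead of 15833. The call at this TERT region was lost when CRAMP1-KO replicate 2 was left out, at 0.55 on the log2 scale (limma adjusted p = 0.0644), and without CRAMP1-KO replicate 3, at 0.56 (limma adjusted p = 0.0611). It was also lost without WT replicate 2, at 0.57 (limma adjusted p = 0.0649), and without WT replicate 3, at 0.58 (limma adjusted p = 0.0593). It held without CRAMP1-KO replicate 1, at 0.78 (limma adjusted p = 0.0107), and without the deviating WT replicate 1, at 0.75 (limma adjusted p = 0.0202). With peaks limited to a −log10 q of at least 5 or 10 it was not tested, since the peak of WT replicate 3 had a −log10 q of 3.17. Pileup divided by the local background gave 0.42 (limma adjusted p = 0.0991).

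The other shared regions of the TERT body differed less. At chr5:1276886-1277516, 17.96 kb downstream of the start, the scaled pileup was 29.1, 28.6 and 33.9 in CRAMP1-KO and 26.7, 26.3 and 26.5 in WT. The genotypes did not overlap, yet the difference of 0.20 did not pass the threshold (limma adjusted p = 0.241). At the region nearest to the start the scaled pileup was 32.7, 38.1 and 40.0 in CRAMP1-KO and 38.1, 28.9 and 33.4 in WT, with overlap (log2 difference 0.15, limma adjusted p = 0.470). That region covered 1750, 1097 and 2949 bp in CRAMP1-KO and 1793, 1132 and 623 bp in WT. CRAMP1-KO replicate 3 also had the highest coverage of the whole window, 13267 bp against 6665 and 6563 bp in CRAMP1-KO replicates 1 and 2 and 10988, 8183 and 4683 bp in WT.

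At the starts of ATRX and DAXX the chromatin was open in all 6 libraries. The ATRX start lay in chrX:77040972-77042097. Its scaled pileup was 113, 148 and 122 in CRAMP1-KO and 130, 129 and 124 in WT, and the CRAMP1-KO values spanned the WT values. The difference was -0.011 on the log2 scale (limma adjusted p = 0.958, SE 0.13). The peak's fold was 15.4, 19.7 and 17.8 in CRAMP1-KO and 18.9, 18.6 and 17.9 in WT, with a width of 785, 767 and 951 bp in CRAMP1-KO and 713, 1024 and 654 bp in WT. Within the ATRX limits, which span 281364 bp, 1 other peak was called in 1 library, CRAMP1-KO replicate 3, with a fold of 3.93 and a −log10 q of 6.08. A region just beyond the gene's end, chrX:76756654-76757048, had a peak in CRAMP1-KO replicates 2 and 3 and in all 3 WT libraries, with folds of 5.47 and 7.08 in CRAMP1-KO and 6.86, 8.63 and 8.44 in WT.

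The peak at the DAXX start, chr6:33290500-33291573, had a lower fold, a lower pileup and a greater width in every CRAMP1-KO library than in any WT library. The fold was 13.0, 12.6 and 12.9 in CRAMP1-KO and 14.7, 14.7 and 13.7 in WT. The scaled pileup was 226, 247 and 245 in CRAMP1-KO and 261, 295 and 302 in WT, and neither measure overlapped. Scaled pileups were apart, in either direction, in 38.1% of all shared regions, and apart and lower in CRAMP1-KO in 21899 of 92505. No such share was determined for fold, so how common its separation is stays unknown. At the DAXX start the means of scaled pileup were 239 ± 11.1 in CRAMP1-KO and 286 ± 21.9 in WT (SD, n = 3 each). The difference of -0.26 on the log2 scale did not pass the threshold (SE 0.11, limma adjusted p = 0.140), and would pass it narrowly with a prior variance that follows the mean level (limma adjusted p = 0.04997). That prior variance called 23026 of all 92505 shared regions, against 15833 without it. Relative to its own background the pileup of the DAXX start differed by -0.14. The peak covered 1048, 980 and 1074 bp in CRAMP1-KO and 874, 867 and 886 bp in WT. Of all shared regions, 19.2% were likewise wider in every CRAMP1-KO library than in any WT library. After each library was centred on its median width the genotypes overlapped at the DAXX start, at a log2 difference of 0.11 (limma adjusted p = 0.711).

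The other DAXX regions lie among close neighbours. RefSeq places TAPBP and ZBTB22, the genes of an antigen-loading chaperone and a zinc finger protein, beyond the 3′ end of DAXX, and SMIM40, which encodes a small membrane protein, also within 10 kb. Which gene each flanking peak belongs to was not analysed here. At chr6:33285457-33286185 the peak reached the same base, 33286185, in all 3 CRAMP1-KO libraries and 33286180 in all 3 WT libraries. Its scaled pileup was 209 ± 27.7 in CRAMP1-KO and 245 ± 16.7 in WT (SD, n = 3 each), a difference of -0.24 (limma adjusted p = 0.217). At chr6:33280250-33282096, CRAMP1-KO replicate 3 had 1 joined peak where the other 5 libraries had 2. At chr6:33296724-33297327, upstream, the difference was 0.086 (limma adjusted p = 0.684).

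Among the shelterin genes, TERF1 and POT1 each had 1 strong region, at the start, and little else. The TERF1 region, chr8:73920523-73921525, was the strongest of the 6 genes, at the 97.8 percentile of scaled pileup. It held 454, 460 and 358 scaled reads in CRAMP1-KO and 327, 414 and 482 in WT. The genotypes overlapped fully (log2 difference 0.065, SE 0.16, limma adjusted p = 0.802). The peak covered 906, 1003 and 898 bp in CRAMP1-KO and 871, 858 and 834 bp in WT. No other TERF1 peak was called in any library.

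The POT1 region, chr7:124569570-124570320, held 202, 183 and 197 scaled reads in CRAMP1-KO and 187, 209 and 187 in WT. The means were 194 ± 9.67 in CRAMP1-KO and 194 ± 12.8 in WT (SD, n = 3 each), a difference of 0.0020 on the log2 scale (limma adjusted p = 0.992, SE 0.11). Its fold was 20.3, 18.8 and 21.0 in CRAMP1-KO and 22.2, 22.4 and 20.2 in WT. The only other POT1 peak was 1 of 172 bp in CRAMP1-KO replicate 3.

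**Figure D2:**
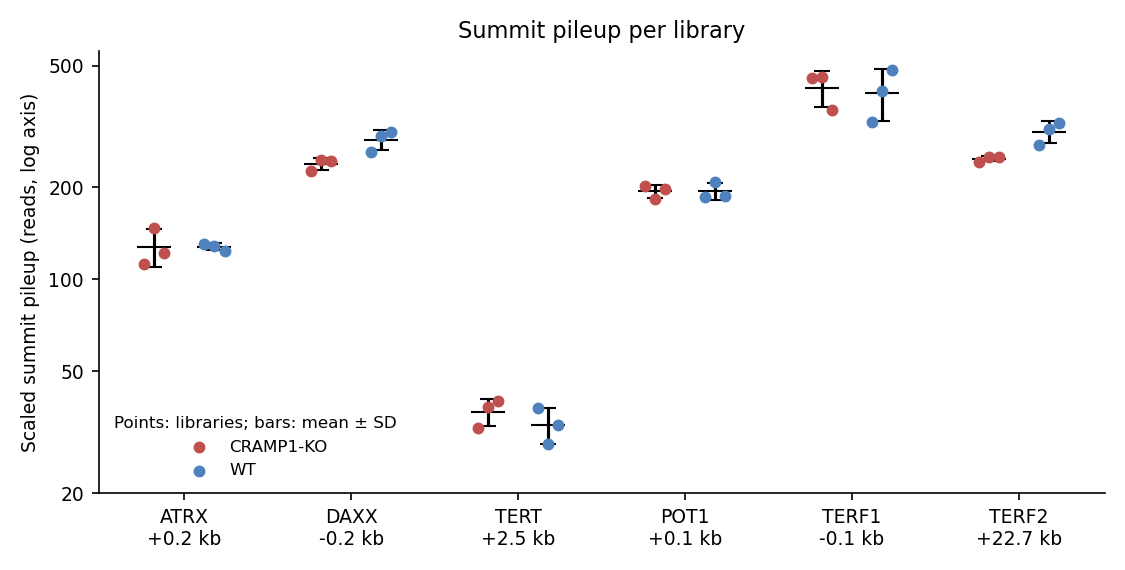
Scaled summit pileup in reads (log axis) at the strongest region of each gene, or for TERT at the region nearest to its start, with CRAMP1-KO points left of WT points and bars for mean ± SD of 3 libraries. DAXX and TERF2 separate the genotypes, as 38.1% of all shared regions do, with means of 239 and 248 in CRAMP1-KO and 286 and 304 in WT. TERT lies lowest, at 36.9 in CRAMP1-KO and 33.5 in WT.

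By scaled pileup of these regions the order was the same in both genotypes, with TERF1 highest, then TERF2, DAXX, POT1, ATRX and TERT. The means of TERF2 and DAXX were 248 ± 5.16 and 239 ± 11.1 in CRAMP1-KO and 304 ± 25.3 and 286 ± 21.9 in WT (SD, n = 3 each). These 2 neighbours did not differ beyond their spread, and the ranges of all other neighbours in the order were apart within each genotype. TERF2 and DAXX separated the genotypes, whereas ATRX, POT1, TERF1 and the TERT region nearest to its start did not. Of all shared regions, 38.1% separated them in either direction.

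All 4 shared regions of the TERF2 window had a lower mean pileup in CRAMP1-KO than in WT, and none passed the test. The strongest region, chr16:69419328-69420279, held 242, 251 and 251 scaled reads in CRAMP1-KO and 276, 311 and 325 in WT, without overlap. The difference was -0.29 on the log2 scale (limma adjusted p = 0.10, SE 0.11). The second region, chr16:69432031-69432508, held 190, 214 and 222 in CRAMP1-KO and 260, 256 and 233 in WT, also without overlap (log2 difference -0.26, limma adjusted p = 0.142). With a prior variance that follows the mean level these regions passed, at limma adjusted p = 0.0270 and 0.0453, while after quantile normalization their differences were -0.13 and -0.13 and did not pass. Over all 92505 shared regions, that prior variance called 23026, against 15833 without it.

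The upstream regions were weaker. At chr16:69447037-69447876 the scaled pileup was 30.3, 28.6 and 26.9 in CRAMP1-KO and 31.2, 41.6 and 43.2 in WT, which did not overlap (log2 difference -0.42, limma adjusted p = 0.0601). It passed without WT replicate 1, at -0.57 (limma adjusted p = 0.0210), and with stricter q limits. At chr16:69451465-69451983 it was 29.1, 19.1 and 13.8 in CRAMP1-KO and 31.2, 22.9 and 34.8 in WT, with overlap (log2 difference -0.57, limma adjusted p = 0.123), and it passed without CRAMP1-KO replicate 1, at -0.85 (limma adjusted p = 0.0239), and with scaling to the lowest background. The local background was lower in CRAMP1-KO at all 4 shared TERF2 regions, by -0.19 to -0.23 on the log2 scale. Divided by it, the pileups differed by -0.072, -0.056, -0.18 and -0.33, and none passed. The 257 shared regions within 2 Mb of TERF2 had a median pileup difference of -0.14, and the 261 around DAXX one of -0.13, against -0.066 over all shared regions. The part of the surrounding chromosome in the TERF2 and DAXX values was not tested.

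The limits used for TERF2 span 53011 bp, and RefSeq gives the gene 30441 bp on GRCh38.p14. The strongest region runs from 29864 to 30815 bp above the gene's 3′ limit, so the RefSeq start, by its length, falls inside it. Measured from that start, the second region, the peak at the listed start and both upstream regions would lie more than 10 kb upstream. A window drawn by the RefSeq length would therefore leave them out, whereas the window counts and shares here include them. At the far end of the limits used, chr16:69442332-69442682 had a peak in 0 CRAMP1-KO and 2 WT libraries, WT replicates 1 and 2, with folds of 6.04 and 4.28. The TERF2 window held 5, 5 and 7 peaks in CRAMP1-KO and 9, 9 and 7 in WT. As a share of all peaks this was 0.392 ± 0.0448 per 10000 in CRAMP1-KO and 0.525 ± 0.0705 in WT (SD, n = 3 each). The 3 CRAMP1-KO shares, 0.374, 0.359 and 0.443, were below the 3 WT shares, 0.453, 0.593 and 0.528 (two-sided exact permutation p = 0.1, the smallest this design allows, adjusted over the 6 windows 0.6). With a −log10 q of at least 5, lists of equal length or no flank, the exact permutation p was 0.2. With a −log10 q of at least 10 the exact permutation p was 0.1. The peak shares of the other 5 windows overlapped between genotypes (exact permutation p = 0.2 to 0.9), as did the shares of covered bases in all 6 windows (exact permutation p = 0.2 to 0.9).

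**Figure D3:**
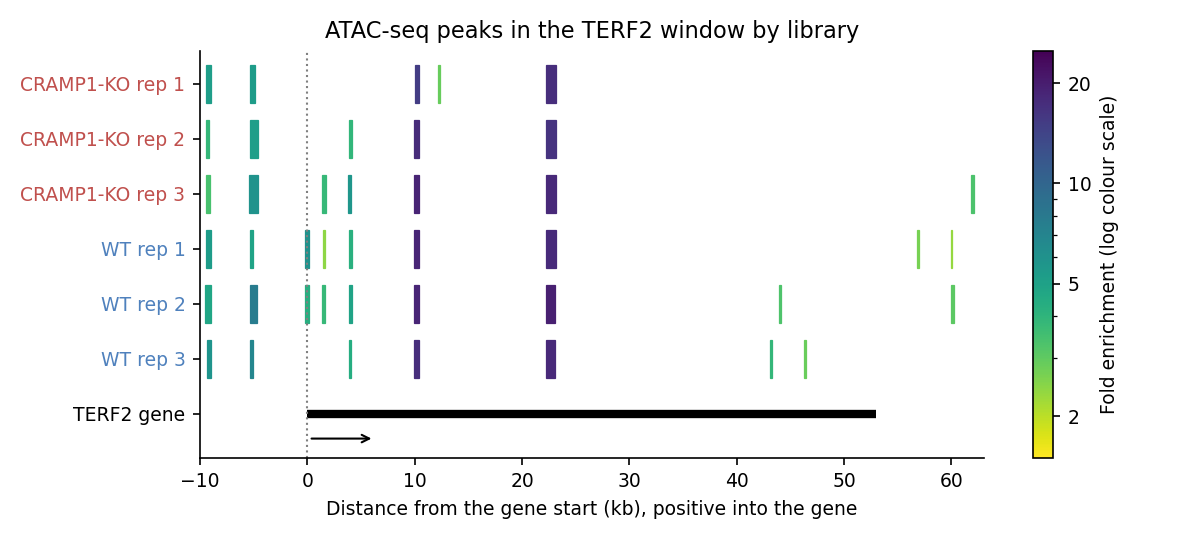
Peaks of each library in the TERF2 window by distance from the listed gene start in kb, CRAMP1-KO rows above WT rows, coloured by fold enrichment on a log scale. The strongest peak lies 22.7 kb inside the limits in all 6 rows, and the peak at the listed start appears in 0 CRAMP1-KO and 2 WT rows.

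Over the 16 shared regions, the pileup model called 1 region higher in CRAMP1-KO and 0 lower at an adjusted p under 0.05. Of all shared regions it called 7.34% higher and 9.78% lower, or 6788 and 9045 regions, while pileup over local background gave 2533 higher and 1528 lower. At an unadjusted p under 0.05 there were 6 of 16 regions, or 37.5%, against 33.7% of all. The scaled pileups of the genotypes did not overlap in 6 of 16 regions, of which 2 were higher and 4 lower in CRAMP1-KO, beside a background of 38.1%. Of all 92505 shared regions, 13352 were apart and higher in CRAMP1-KO and 21899 apart and lower. The median log2 difference was -0.018 over the 16 regions and -0.066 over all. Differences were negative in 9 of the 16 regions, or 56.2%, against 58.7% of all. Without the TERT regions, the median over the other 11 was -0.24, with 8 negative, or 72.7%, and 3 positive. Of these 11, 45.5% had an unadjusted p under 0.05 and 0 were called (limma).

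**Figure D4:**
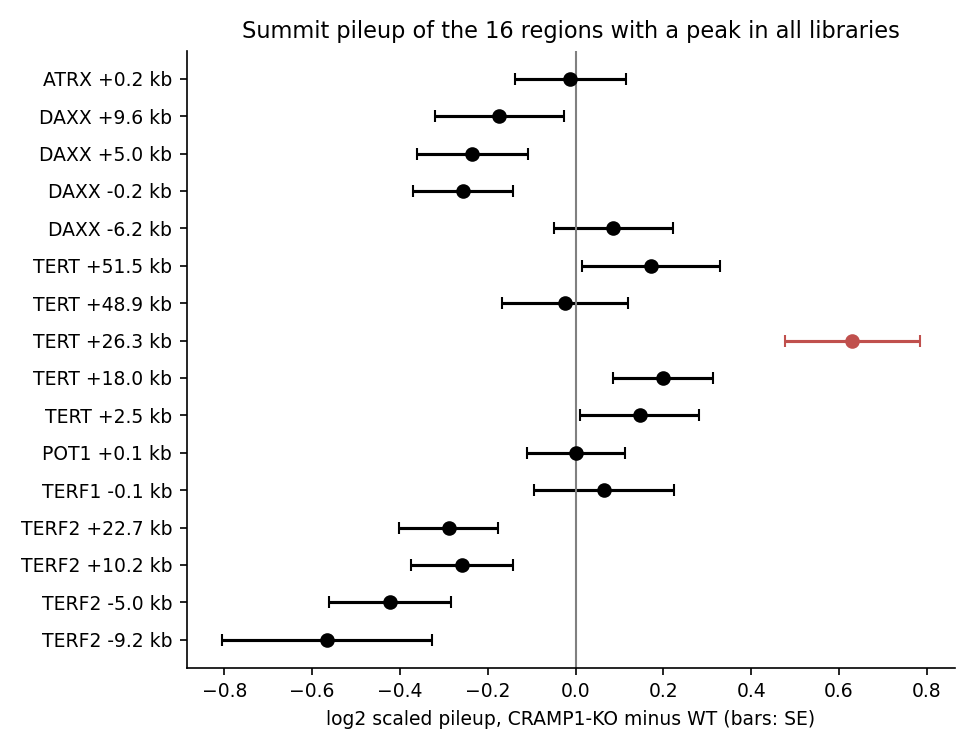
Log2 difference in scaled summit pileup, CRAMP1-KO minus WT, with its SE, at the 16 regions shared by all 6 libraries, each named by gene and distance from its start in kb. The red point, TERT at 26.3 kb, is the only one past the adjusted threshold, and the 4 TERF2 regions lie between -0.26 and -0.57.

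The width model called 0 of 16 regions, and 0.108% of all shared regions (limma). At an unadjusted p under 0.05 there were 2, or 12.5%, against 11.9% of all shared regions. Both lie in the TERT body and were wider in CRAMP1-KO. In deposited bases, 5 of the 16 regions were wider in every CRAMP1-KO library than in any WT library and 0 were narrower. Those 5 are the starts of DAXX and TERF1, the strongest TERF2 region, the TERT region at 26.3 kb and the DAXX flank at chr6:33280250-33282096. The same held for 19.2% of all shared regions in the wider and 3.03% in the narrower direction. Once each library was centred on its median width, 1 of 16 separated the genotypes, beside 18.9% of all.

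**Figure D5:**
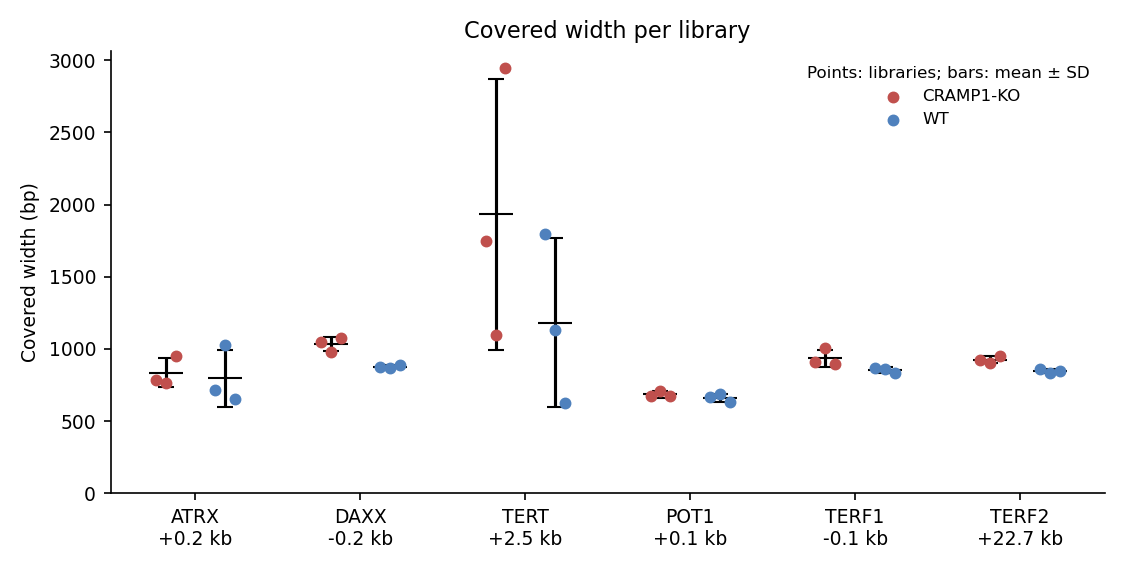
Covered width in bp, not centred, at the same 6 regions, with CRAMP1-KO points left of WT points and bars for mean ± SD of 3 libraries. The DAXX means are 1034 bp in CRAMP1-KO and 876 bp in WT, those of TERF2 924 and 849 bp, and the TERT region varies most within a genotype.

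The 6 genes were set beside 25 others of telomere biology, which cover telomerase RNA and its proteins, further shelterin subunits, the CST complex that finishes the lagging strand, and recombination genes. Their starts had a peak within 1 kb in all 6 libraries in 24 of 25 genes, at the 52.3 to 99.5 percentiles of scaled pileup. The exception was TERC, the telomerase RNA gene, with no peak within 1 kb of its start in any library. TERT and TERC, the catalytic protein and the template RNA of telomerase, were both without a start peak in CRAMP1-KO and in WT, but by unlike rules. For TERT no peak covered the start, and the edge of its nearest region, shared by all 6 libraries, lay 1021 bp away. For TERC no peak lay within 1 kb of a start taken from limits written by hand. Of the 77 shared regions at these genes, 2 were called higher and 5 lower in CRAMP1-KO by pileup (limma), which is 9.09% of them against 17.1% of all shared regions, with a median difference of -0.14. Differences were negative in 55 of the 77, or 71.4%, against 58.7% of all. By width 0 were called (limma), and 8, or 10.4%, had an unadjusted p under 0.05, against 11.9% of all.

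The largest of these was a region 32.6 kb from the start of SLX4, a scaffold for nucleases that resolve recombination intermediates, with 27.8 ± 3.32 scaled reads in CRAMP1-KO and 49.2 ± 4.91 in WT (SD, n = 3 each; log2 difference -0.82, limma adjusted p = 0.0029). A region 45.9 kb from the start of STN1, a CST subunit, was lower by -0.62 (limma adjusted p = 0.0189), and another of the same gene, at 29.7 kb and named after its value was seen, was higher by 0.42 (limma adjusted p = 0.0343). The start regions of ZBTB48, a telomere-binding zinc finger protein, and SMARCAL1, an annealing helicase, were lower by -0.50 (limma adjusted p = 0.0241) and -0.45 (limma adjusted p = 0.0359). Near the shelterin genes ACD and TINF2, regions 13.4 and 10.2 kb from the starts moved by 0.45 (limma adjusted p = 0.0237) and -0.44 (limma adjusted p = 0.0191), higher and lower in CRAMP1-KO. The limits used span 30402 bp for SLX4, 40647 bp for STN1, 3304 bp for ACD and 3032 bp for TINF2. The regions at 32.6, 45.9, 13.4 and 10.2 kb therefore lie in the flanks beyond the ends of these genes. Which genes they belong to was not analysed here.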

How the data were processed

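Open chromatin was measured by ATAC-seq in 3 CRAMP1-KO and 3 WT libraries. The submitters' processing notes name BWA 0.7.17-r1188, MACS3, the hg19 build, cutadapt 3.4 and bcl2fastq 2.20.0. For caller settings and duplicates, the text is not given in the sources used here. For each library the authors deposited 1 peak list, with a score, a fold enrichment (ratio of pileup to local background), a −log10 p and a −log10 q per peak. Read counts were not used here, so intervals for counting error are not given.

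Pileup and background were solved from fold and −log10 p, assuming MACS3's pseudocount of 1. The pileup came out whole within 0.01 in 100% of peaks of every library, and the solver was tested on simulated peaks. Peaks on chromosomes 1 to 22 and X that overlapped by at least 1 bp were merged. In regions with a peak in all 6 libraries, log2 pileup and log2 covered width, each centred on the library median, were compared two-sided by limma 3.58.1 under R 4.3.3, with Benjamini-Hochberg adjustment over all 92505 regions and a threshold of 0.05. Regions missing from a library entered no test. Window shares were compared by exact permutation over 20 assignments. The remaining steps ran in Python 3.11.15 with scipy 1.17.1, pandas 2.3.3, numpy 2.4.6 and matplotlib 3.10.9.

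Members and lists were chosen with earlier results of these data known. Named were all 6 genes with their start, strongest and called regions. Of the other 25 genes, the rule named called regions, up to the 6 with the largest absolute change. A further STN1 region was named outside this rule, after its value was seen. Limits of those 25 genes were written by hand for hg19. All 25 matched GRCh38.p14 in chromosome, and 20 were within 10% in span. Those outside it were TERC, ACD, NAF1, RAD52 and POLD3. TERC spanned 541 bp by the limits used and 451 bp in RefSeq. RefSeq promoters were matched by symbol, and 2 of 6 were in the table. Alternatives were other scalings, stricter q limits, lists of equal length, an overlap of 50 bp, a variance trend, no flank, each library left out in turn, and a replicate block.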

Additional observations from a re-analysis of the deposited data

How the results depend on the processing

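The number of shared regions called by pileup was 15833. It was 23026 with a variance trend, 10416 with scaling to the lowest background, 4061 with pileup over local background, and 9103 to 11610 with 1 library left out. The split of 6788 higher and 9045 lower in CRAMP1-KO became 5393 and 5023 with scaling to the lowest background, and 2533 and 1528 over local background. Of the 16 regions of the 6 genes, 1 was called as reported, 4 with a variance trend, 2 with scaling to the lowest background, 1 with a −log10 q of at least 5 or 10 (TERF2 at chr16:69447037-69447876, in place of the TERT region), 0 over local background and 0 to 2 with 1 library left out. With the 100 width calls as reported, there were 39 with a variance trend, 192 at a −log10 q of at least 10, 0 with the replicate block and 0 with any 1 library left out. The replicate numbers did not pair the samples, since deviations of same-numbered libraries correlated at 0.056, 0.062 and -0.090. With them as a block, the pileup model called 13808 shared regions and 1 of the 16, the same TERT region (limma adjusted p = 0.0378).

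Some differences changed sign, none of them past the threshold in either setting, and the cause was not tested. Not all were near 0 as reported. TERT at 51.5 kb stood at 0.17 in pileup and -0.28 in width, and the TERT window at 9.17 in covered bases per 1000000. For pileup, ATRX (-0.011 as reported) became 0.0046 and 0.019 at a −log10 q of at least 5 and 10, 0.0029 with lists of equal length, 0.0080 with scaling to the lowest background and 0.045 with quantile normalization. TERT at 48.9 kb became 0.0056 at a −log10 q of at least 10. Over local background, TERT at 51.5 kb became -0.087, the DAXX flank 0.00035, POT1 -0.10 and TERF1 -0.13. With 1 library left out, pileup differences ran, lowest to highest, for TERT at 48.9 kb -0.15 to 0.11, the upstream DAXX region -0.024 to 0.19, POT1 -0.028 to 0.056, TERF1 -0.086 to 0.20 and ATRX -0.12 to 0.074. For width, the upstream DAXX region became -0.0081 and -0.014 at a −log10 q of at least 5 and 10, and without centring POT1 became 0.051, TERF1 0.13, the strongest TERF2 region 0.12 and ATRX 0.087. Leaving out 1 library gave width differences for TERT at 51.5 kb -1.05 to 0.46, TERT at 48.9 kb -0.15 to 0.31, the upstream DAXX region -0.16 to 0.26, TERF1 -0.088 to 0.073, the strongest TERF2 region -0.053 to 0.068 and ATRX -0.15 to 0.12. For window shares of peaks per 10000, ATRX became -0.0713 and TERT 0.0741 at a −log10 q of at least 10, and TERT 0.0251 with lists of equal length. For covered bases per 1000000, ATRX became 0.172 and TERF1 -0.0973 without flanks, and POT1 -0.0797 and -0.348 at a −log10 q of at least 5 and 10. Leaving out 1 library gave differences in peak share for ATRX -0.0185 to 0.039, TERT -0.0907 to 0.0207 and TERF1 -0.000697 to 0.0118, and in covered bases for ATRX -1.94 to 1.4 and TERT -9.16 to 19.6.

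Depth limits these values. Sequenced totals are unknown, reads below the caller's threshold leave no peak, and the called TERT region rests on 16 to 53 reads per library. Copy number of U2OS segments was not analysed here.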
